A study of Mus musculus with 11 samples.

Results

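Phase II conjugation enzymes were followed in mouse liver as the genes whose symbol in the deposited probe table begins with Ugt1, Ugt2 or Ugt3 (glucuronosyltransferases), with Sult and a digit (sulfotransferases), or with Gst, a class letter from a, k, m, o, p, t or z and a digit (cytosolic, mitochondrial and peroxisomal glutathione transferases). A gene was a member if detection of its probe reached a p-value below 0.05 on 2 or more of the 11 arrays, and the brightest probe stood for the gene. Of 53 such genes on the array, 43 were members, among 15469 genes detected by the same rule. They were 20 of 21 Gst, 7 of 11 Sult and 16 of 21 Ugt genes. The rule used the names and the detection of the probes and no difference between groups.

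The livers came from male C57BL/6J mice aged 8 weeks, and every mouse, controls included, had received an adenovirus for FXR and then, after a week, an overnight treatment with the synthetic FXR agonist GW4064 at 30 mg/kg. FXR (Nr1h4) is the nuclear receptor that bile acids activate. The lean groups were FXR-WT with 2 arrays and FXR-K217Q with 3, and the obese groups were FXR-WT and FXR-K217R with 3 arrays each. The sample titles mark the obese arrays HFD and the lean arrays ND, which the labels used here do not spell out, and no diet is otherwise given. K217Q puts glutamine, a mimic of the acetylated residue, in the place of a lysine, and K217R puts arginine there, which is not acetylated. The mutant thus differs between lean and obese mice, the host's own FXR is not stated to be removed, and no group without virus or without agonist was analysed here. Whether each replicate is its own animal is not stated in the labels. The p-values therefore reflect the spread among these samples alone, which may be technical, and the number of arrays limits the precision of each value.

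Phase II enzymes attach a polar group to drugs, steroid and thyroid hormones, bilirubin, bile acids and reactive electrophiles, which can then leave the cell by efflux pumps and pass into bile or urine. Glucuronosyltransferases sit in the endoplasmic reticulum and take glucuronic acid from UDP-glucuronate, sulfotransferases are cytosolic and take sulfate from PAPS, and glutathione transferases couple glutathione to electrophiles. In liver many of these genes are known targets of the xenobiotic receptors PXR (Nr1i2), CAR (Nr1i3) and AHR and of the electrophile-sensing factor NRF2 (Nfe2l2), with HNF1 and HNF4 as liver factors.

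Values are bead intensities after normalization, in log2 units, and each change given is one group's mean less another's on the log2 scale. Changes were tested with limma over all 15469 genes at a 5% false discovery rate, two-sided. Of 7 hepatocyte markers 6 were detected on every array and all on at least 2, and their mean level was between 11.96 and 12.64, lowest in obese FXR-K217R (11.96 to 12.10). The mean level of 10 neutrophil markers, all of them detected on at least 2 arrays, was 8.67 to 9.08 in obese FXR-WT, 7.37 to 7.38 in lean FXR-WT, 6.23 to 6.71 in lean FXR-K217Q and 6.31 to 6.70 in obese FXR-K217R livers. The probe for Nr1h4 read 11.98 to 12.53 over all arrays. The circadian phase of the livers, summarised as the mean level of Arntl and Clock taken from that of Dbp, Nr1d1, Nr1d2 and Per3, was not even. It was -0.49 and -0.27 in lean FXR-WT, 1.07, 1.29 and -0.92 in lean FXR-K217Q, -0.85, 1.30 and 1.55 in obese FXR-WT and 1.78, 1.52 and 2.03 in obese FXR-K217R livers. Lean FXR-K217Q replicate 3 and obese FXR-WT replicate 1 therefore stood apart within their groups, and results are given with and without them where they bear on a call.

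The liver carried a broad phase II repertoire in all 4 groups. Of the 20 Gst members, 19 were detected on every array of every group, as were 4 of 7 Sult members and 15 of 16 Ugt members. The exceptions were dim. Gsto2, an omega class enzyme, was detected on 3 arrays, Sult1e1 (estrogen sulfotransferase) on 3, Sult2b1 (cholesterol sulfotransferase) on 5, Sult4a1 (a mainly neural sulfotransferase) on 2 and Ugt1a7c on 3. Sult1e1 reached 6.44 on obese FXR-WT replicate 1 and 5.67 on lean FXR-K217Q replicate 3, the pair of arrays that stood apart, and 4.57 to 5.26 on the other 9. Not detected by the rule were Gstt4, Sult1b1, Sult1c1, Sult2a1, Sult3a1, Ugt2a1, Ugt2a2, Ugt2b37, Ugt2b38 and Ugt2b5, of which Ugt2a2 passed on 1 array and the other 9 on none. Sult2a1 and Sult3a1 are known as transcripts of female mouse liver, and these mice were male. Ugt2b38, which is on the list of male-biased transcripts used below, was not detected either. Whether a transcript was absent or its probe failed was not tested.

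Several members lay at the top of the measured range and hardly varied. Gstp1, the pi class enzyme that is abundant in male mouse liver, ran from 15.01 to 15.23, and 3 of the 45281 probes were brighter on average. Gstm1, a mu class enzyme, ran from 14.78 to 15.02. Ugt1a10 ran from 14.75 to 15.10 with 46 brighter probes, and its symbol is also listed as an older name of Ugt1a7c. The files hold no flag for saturated beads, so how far such a bright probe could still rise was not tested. Gsta3, an alpha class enzyme that handles aflatoxin epoxide in mice, measured 14.27 to 15.03, Gstm2 13.03 to 14.07 and Gstz1, which isomerises maleylacetoacetate in tyrosine breakdown, 13.66 to 14.07. In the Ugt family, Ugt2b36 lay between 14.14 and 14.69, Ugt3a2 between 12.82 and 13.43, Ugt2b35 between 11.30 and 12.47 and Ugt1a6a, a phenol glucuronosyltransferase, between 11.60 and 12.25. Among sulfotransferases, Sult1a1 (phenol sulfotransferase) spanned 11.99 to 13.63, Sult1d1 10.23 upwards with a median of 10.74, Sult5a1 5.56 to 7.75 and Sult1c2 5.70 to 7.60.

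As a family the members varied more from array to array than the typical gene. Their median within-group SD was 0.32, against 0.21 for all genes tested, and their median range over the 11 arrays was 1.09 against 0.75. A range of at least 1 was seen in 23 members and a range under 0.5 in 4. Lean FXR-K217Q replicates 1 and 2 stood highest, with 31 and 36 of 43 members above their own mean over the arrays and median deviations of 0.20 and 0.27. On the other 9 arrays the median deviation lay between -0.10 and 0.04. For all genes tested these medians lay between -0.03 and 0.01.

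**Figure D1:**
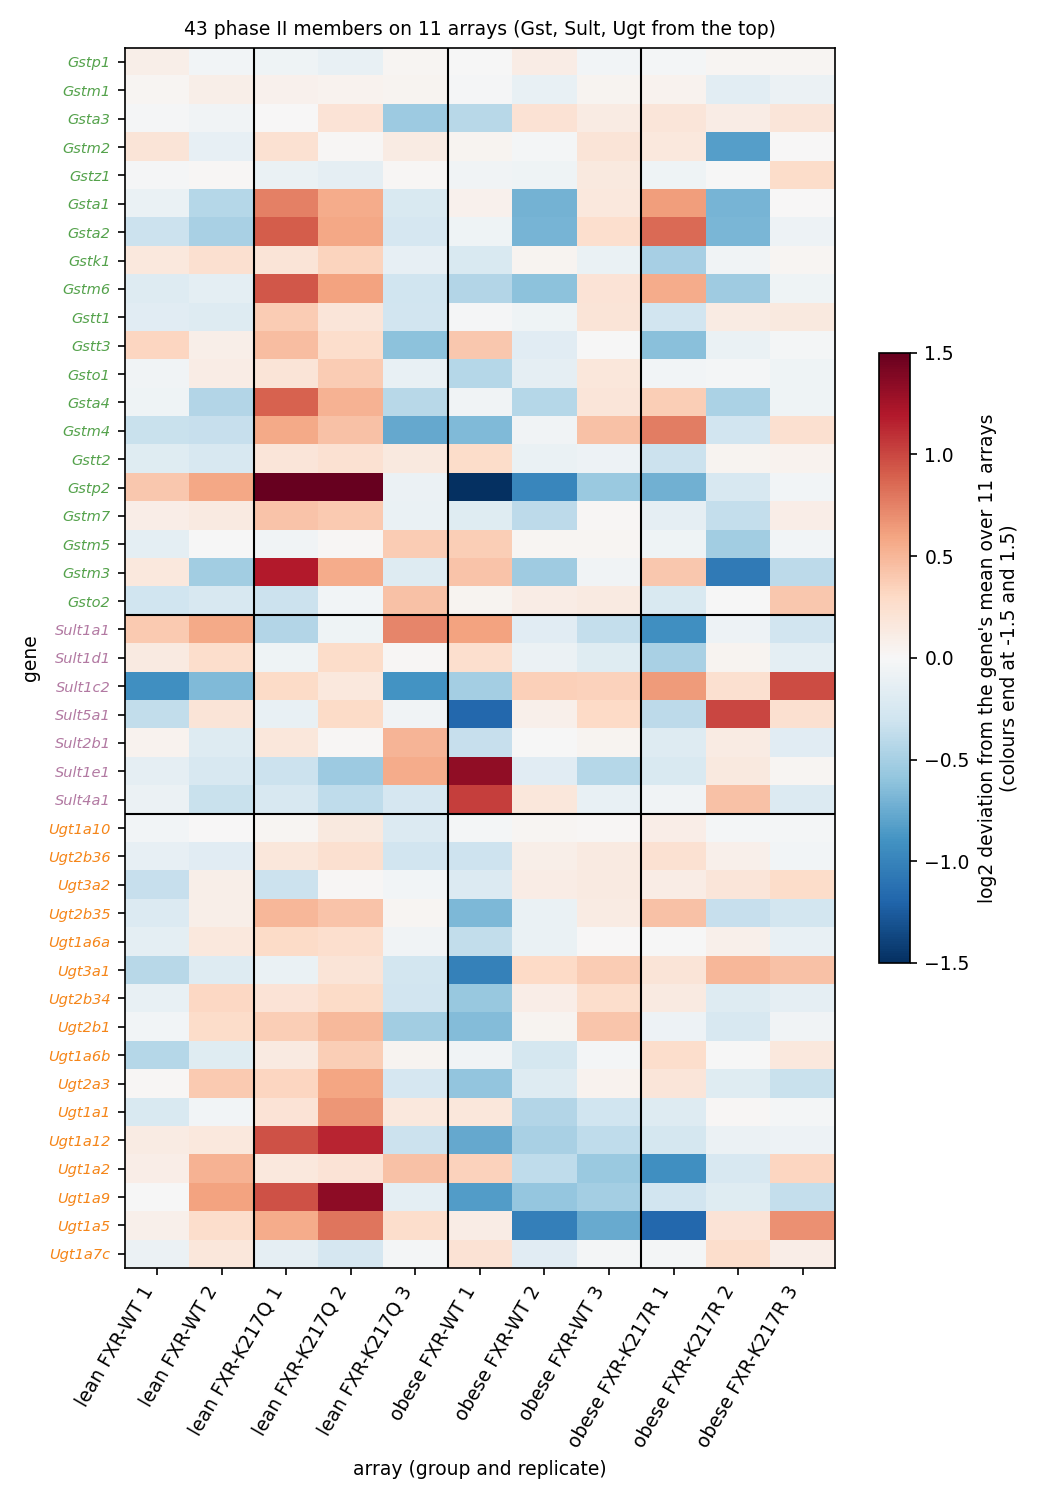
Deviation of each of the 43 members (rows, in family order) from its own mean over the 11 arrays (columns, by group and replicate), in log2 units with colours ending at -1.5 and 1.5. Lean FXR-K217Q replicates 1 and 2 are mostly above the mean (31 and 36 of 43 members), and Gstp2 is the row with the strongest contrast between lean and obese arrays.

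The comparison of both obese groups with both lean groups uses all 11 arrays and asks how the enzymes differed with obesity, averaged over constructs that are not the same on both sides. The pi class transferase Gstp2 was 2.79-fold lower in obese livers and the glucuronosyltransferase Ugt1a9 was 1.96-fold lower, and the other 41 members did not pass. So 2 of 43 members were called, both lower, where 4.14% of all genes were called, 1.62% as lower. At an unadjusted p under 0.05 there were 8 members, 6 lower and 2 higher, beside 21.1% of all genes (9.86% lower and 11.3% higher). Ugt1a9 alone had obese and lean arrays that did not overlap, which 4.48% of all genes showed. The median change of the members was -0.14, that of the 20 Gst members -0.11, of the 7 Sult members 0.03 and of the 16 Ugt members -0.19, with 0 for all genes tested. Since these are whole livers, fewer cells of a type and less RNA per cell cannot be told apart. The clock summary was higher on 5 of 6 obese arrays than on any lean array, and its part in these changes was not tested. Without both arrays that stood apart it was -0.49 to 1.29 on lean and 1.30 to 2.03 on obese arrays. Obesity and clock phase then cannot be told apart in this comparison, and that omission was chosen after seeing the data.

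Gstp2 measured 10.39 and 10.56 in lean FXR-WT, 11.55, 11.70 and 9.90 in lean FXR-K217Q, 8.31, 9.0 and 9.43 in obese FXR-WT, and 9.26, 9.74 and 9.94 in obese FXR-K217R livers. All obese arrays lay below the lean ones except for obese FXR-K217R replicate 3, which lay just above lean FXR-K217Q replicate 3. Group means were 10.47 ± 0.12 (SD, n = 2), 11.05 ± 1.00 (SD, n = 3), 8.91 ± 0.56 (SD, n = 3) and 9.65 ± 0.35 (SD, n = 3) in that order. The change between obese and lean groups was -1.48 (SE 0.33, adjusted p = 0.0338, limma). It was -1.56 between the FXR-WT groups and -1.40 between obese FXR-K217R and lean FXR-K217Q. The call was not robust to single arrays. It was lost without lean FXR-WT replicate 1 (adjusted p = 0.087) or 2 (0.155), lean FXR-K217Q replicate 1 (0.0581) or 2 (0.0669), obese FXR-WT replicate 2 (0.0768) and obese FXR-K217R replicate 1 (0.0787), 2 (0.0582) or 3 (0.0566), with changes between -1.77 and -1.32 over the 11 omissions. Without both arrays that stood apart the change was -1.62 (adjusted p = 0.00126, limma), an omission with which obesity and clock phase cannot be told apart.

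Gstp2 lies beside Gstp1, and both encode pi class transferases, the class that detoxifies acrolein and other small electrophiles. Their promoters are shown because the genes are close copies whose probes behaved differently. Each sequence is from the RefSeq table of build GRCm38.p6, 250 bases before to 50 after the gene's start, 5′ to 3′ on the gene's strand. Capitals mark the AP-1 site letters TGAGTCA, found on either strand in 5.95% of the 27025 genes with a promoter in that table and in 4 of the 37 members that have one (Gstm5, Gstp1, Gstp2 and Sult2b1). The Gstp1 promoter is chr19:4037863-4038162 on the minus strand and that of Gstp2 is chr19:4042172-4042471 on the minus strand.
Gstp1: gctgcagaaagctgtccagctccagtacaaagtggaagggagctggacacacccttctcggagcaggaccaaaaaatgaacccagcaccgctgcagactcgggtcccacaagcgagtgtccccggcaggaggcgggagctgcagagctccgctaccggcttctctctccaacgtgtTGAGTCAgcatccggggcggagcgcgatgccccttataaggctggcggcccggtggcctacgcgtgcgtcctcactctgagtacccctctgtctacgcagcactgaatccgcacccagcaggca
Gstp2: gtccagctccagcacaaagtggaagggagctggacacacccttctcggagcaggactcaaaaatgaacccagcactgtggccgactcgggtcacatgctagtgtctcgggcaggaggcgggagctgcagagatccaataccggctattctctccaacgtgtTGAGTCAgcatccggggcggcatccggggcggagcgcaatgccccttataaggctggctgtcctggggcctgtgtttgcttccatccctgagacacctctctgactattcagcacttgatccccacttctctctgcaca
The capitals begin 74 bases before the start in Gstp1 and 89 bases before it in Gstp2. The aligned promoters were 77.1% identical (246 of 319 aligned columns). A match describes the letters and not a bound site. The AP-1 letters and the antioxidant response element core TGACNNNGC can overlap on the reverse strand. That core was in 14% of the genes and in 3 members (Gsta3, Gstm5 and Gstm7), and in neither pi class window. In both pi class windows the AP-1 letters are followed by GC, a stretch that differs from the core by a single letter, G for C. Other forms of the element were not searched, so these windows are not shown to lack one. All motifs were chosen after the sequences had been read.

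Gstp1 itself was read by 3 probes that disagreed. The brightest changed by 0.03 between obese and lean groups (SE 0.08) and the second by 0.05 (SE 0.09). The third, which ran from 10.43 to 12.11, differed by -0.68 (SE 0.20, adjusted p = 0.0829 over all probes). Like the Gstp2 probe it was lowest on obese FXR-WT replicate 1 and highest on lean FXR-K217Q replicates 1 and 2. Within obese FXR-K217R the order was opposite, with 11.62, 11.24 and 10.97 for this probe against 9.26, 9.74 and 9.94 for that of Gstp2. Where the probes lie was not analysed here, and reads of a probe shared by these close copies cannot be assigned to one of them.

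**Figure D2:**
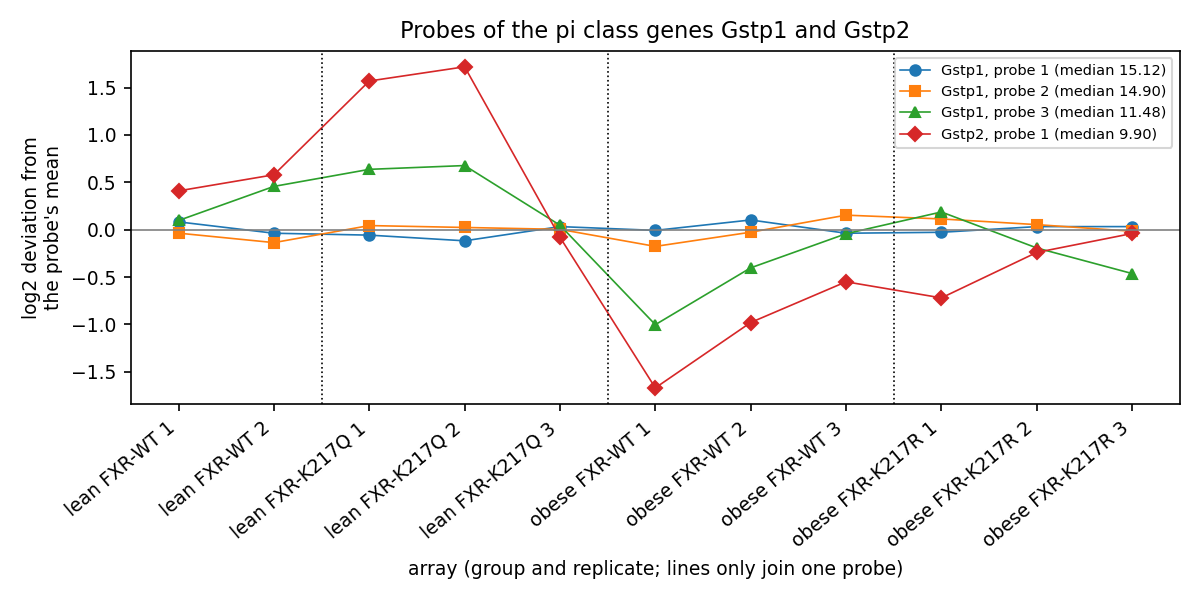
Deviation of the 3 probes of Gstp1 and the probe of Gstp2 from each probe's own mean, in log2 units, on the 11 arrays in group order. The first and second Gstp1 probes stay near 0 on every array, and the third Gstp1 probe and the Gstp2 probe are highest on lean FXR-K217Q replicates 1 and 2 and lowest on obese FXR-WT replicate 1, but run in opposite order over the obese FXR-K217R replicates.

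Ugt1a9, a glucuronosyltransferase of phenols and fatty acids in liver and kidney in humans, measured 7.57 and 8.18 in lean FXR-WT, 8.54, 8.92 and 7.43 in lean FXR-K217Q, 6.74, 7.0 and 7.07 in obese FXR-WT, and 7.29, 7.40 and 7.22 in obese FXR-K217R livers. Every obese array was below every lean array, although lean FXR-K217Q replicate 3 and obese FXR-K217R replicate 2 were almost level. Group means were 7.88 ± 0.43 (SD, n = 2), 8.30 ± 0.77 (SD, n = 3), 6.94 ± 0.18 (SD, n = 3) and 7.30 ± 0.09 (SD, n = 3). The change was -0.97 (SE 0.24, adjusted p = 0.0495, limma), just inside the threshold, and it was -0.94 between the FXR-WT groups and -1.0 between the mutant groups. Leaving out 1 array lost the call in 10 of 11 cases, with adjusted p-values of 0.071 and 0.226 without lean FXR-WT replicates 1 and 2, 0.082 and 0.0774 without lean FXR-K217Q replicates 1 and 2, 0.0683, 0.0985 and 0.0923 without obese FXR-WT replicates 1 to 3, and 0.0965, 0.0759 and 0.0972 without obese FXR-K217R replicates 1 to 3. Changes then ran from -1.18 to -0.81. Without lean FXR-K217Q replicate 3 the adjusted p was 0.00224 and without both arrays that stood apart 0.00381. In the latter case obesity and clock phase cannot be told apart. With no background correction the change was -0.60 (adjusted p = 0.0517).

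Ugt1a12 is listed in the RefSeq gene table as an older name of Ugt1a9, and Ugt1a9 is in turn also listed as an older name of Ugt1a6b, so the symbols of the array may not name the transcripts exactly. Its values were 9.73 and 9.76 in lean FXR-WT, 10.56, 10.75 and 9.28 in lean FXR-K217Q, 8.84, 9.12 and 9.23 in obese FXR-WT, and 9.34, 9.51 and 9.53 in obese FXR-K217R livers. Only lean FXR-K217Q replicate 3 overlapped the obese arrays. The difference was -0.71 (SE 0.23, adjusted p = 0.113) and passed without lean FXR-K217Q replicate 3 (-0.94, adjusted p = 0.0013) and without both arrays that stood apart (-0.88, adjusted p = 0.00148). With the latter omission obesity and clock phase cannot be told apart.

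The Ugt1a genes form 1 locus in which alternative first exons are spliced to shared later exons, each first exon having its own promoter, and a probe in a shared exon would read them all. The Ugt1a9 promoter is shown beside that of Ugt1a1, the bilirubin glucuronosyltransferase, because both belong to this locus and Ugt1a1 differed little between obese and lean livers (-0.23). Capitals mark the letters GTTAAT, the leading part of the HNF1 site, on the reverse strand in both windows. On either strand 8.24% of the genes hold them, and 9 of 37 members do (Gsta3, Sult1a1, Sult1d1, Ugt1a1, Ugt1a10, Ugt1a6a, Ugt1a9, Ugt2a3 and Ugt3a1). From RefSeq build GRCm38.p6, the Ugt1a9 window is chr1:88070529-88070828 on the plus strand and the Ugt1a1 window is chr1:88211709-88212008 on the plus strand.
Ugt1a9: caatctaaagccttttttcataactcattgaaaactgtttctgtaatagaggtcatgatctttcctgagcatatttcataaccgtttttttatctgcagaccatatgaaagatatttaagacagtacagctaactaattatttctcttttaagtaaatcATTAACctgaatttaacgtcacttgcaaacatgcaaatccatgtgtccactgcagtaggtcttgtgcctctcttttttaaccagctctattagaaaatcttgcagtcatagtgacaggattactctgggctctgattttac
Ugt1a1: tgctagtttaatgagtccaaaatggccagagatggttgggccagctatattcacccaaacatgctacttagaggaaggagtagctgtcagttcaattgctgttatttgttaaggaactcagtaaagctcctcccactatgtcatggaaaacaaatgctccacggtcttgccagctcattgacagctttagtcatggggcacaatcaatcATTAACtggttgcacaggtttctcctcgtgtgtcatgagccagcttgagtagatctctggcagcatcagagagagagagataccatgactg
The capitals begin 91 bases before the start in Ugt1a9 and 41 bases before it in Ugt1a1. The windows were 52.6% identical (179 of 340 aligned columns), close to the 51.4% between the unrelated promoters of Gstp1 and Gsta1.

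Of the other 7 Ugt1a members none passed, and 4 had negative (Ugt1a1, Ugt1a2, Ugt1a5 and Ugt1a6a) and 3 positive differences (Ugt1a6b 0.07, Ugt1a7c 0.11 and Ugt1a10 0.02). Ugt1a2 measured 7.72 and 8.13 in lean FXR-WT, 7.78, 7.82 and 8.06 in lean FXR-K217Q, 7.96, 7.24 and 7.06 in obese FXR-WT, and 6.70, 7.37 and 7.94 in obese FXR-K217R livers, a difference of -0.53 (SE 0.23, adjusted p = 0.218). Ugt1a5 differed by -0.68 and its second probe by -0.73, with values of 5.71 to 7.58 on obese and 6.96 to 7.68 on lean arrays. Ugt1a6a had probes of opposite sign (-0.17, 0.21 and -0.05). So had Ugt1a10, at 0.02, 0.02, 0.12, -0.35 and -0.28 from the brightest probe to the dimmest. The male-biased Ugt2b1, a glucuronosyltransferase of steroids and drugs, differed by -0.21, within its within-group SD of 0.42.

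Sult1c2, a sulfotransferase whose human counterpart acts on phenols, moved the other way. It measured 5.70 and 5.97 in lean FXR-WT, 6.92, 6.78 and 5.73 in lean FXR-K217Q, 6.12, 6.99 and 6.97 in obese FXR-WT, and 7.26, 6.88 and 7.60 in obese FXR-K217R livers. Lean FXR-WT was lowest as a group, and lean FXR-K217Q replicates 1 and 2 lay among the obese arrays. The difference was 0.81 (SE 0.25, adjusted p = 0.0975), and it passed without obese FXR-WT replicate 1 (0.96, adjusted p = 0.046) and without both arrays that stood apart (0.77, adjusted p = 0.0216). Its size depended on the background step, at 0.59 with an offset of 50 and 0.34 with no background correction. The 4 arrays with the lowest Sult1c2, both lean FXR-WT arrays and the pair that stood apart, were the 4 with a clock summary below 0, and the part of the clock in this difference was not tested.

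Of the other members at an unadjusted p under 0.05, Gstm7 (mu class) differed by -0.34 (SE 0.13, adjusted p = 0.176) and the mitochondrial and peroxisomal Gstk1 by -0.30 (SE 0.13, adjusted p = 0.201). Gstk1 measured 13.03 to 13.48 on lean and 12.65 to 13.19 on obese arrays, and its second probe differed by -0.21. Sult4a1 was detected on 2 of 6 obese and 0 of 5 lean arrays, so its difference has only background on the lean side. Its values were 5.87 on obese FXR-WT replicate 1, 5.26 on obese FXR-K217R replicate 2 and 4.45 to 5.0 elsewhere.

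**Figure D3:**
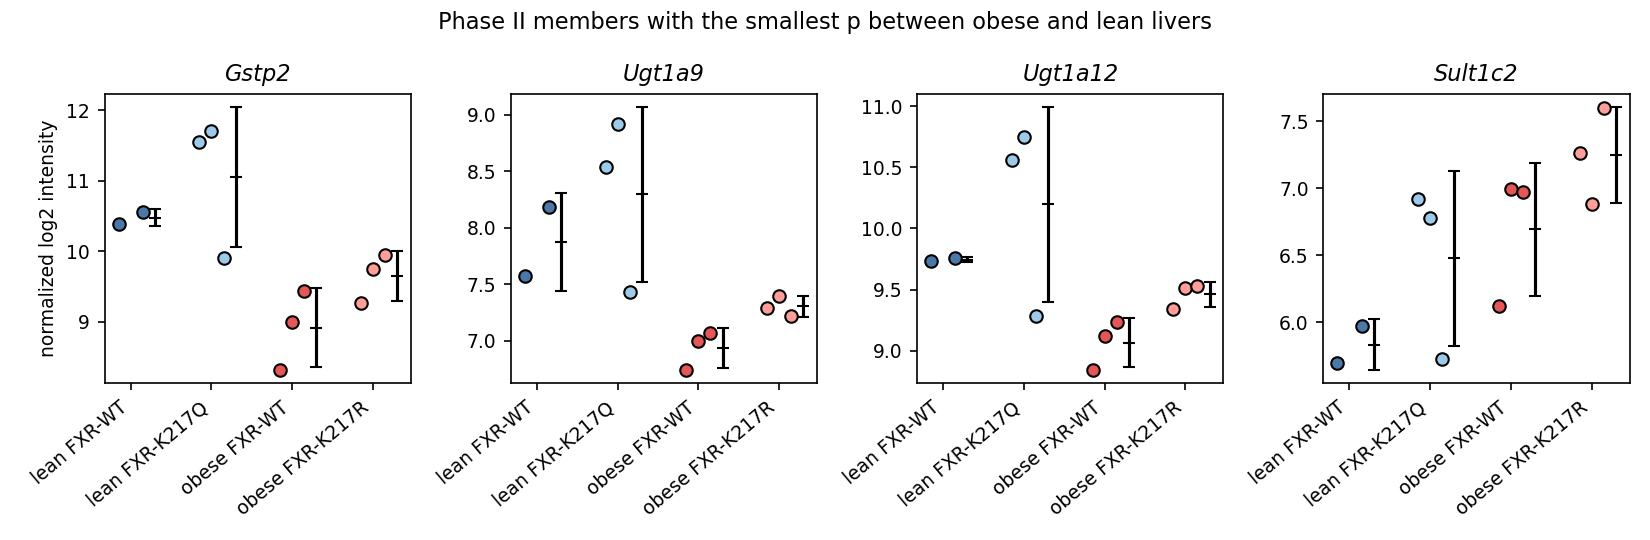
Normalized log2 intensity of Gstp2, Ugt1a9, Ugt1a12 and Sult1c2 on each array (points) with the group mean and SD (bars) in the 4 groups. Gstp2, Ugt1a9 and Ugt1a12 are lower in obese groups, with lean FXR-K217Q replicate 3 the lowest lean array for each, and Sult1c2 is lowest in lean FXR-WT.

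Between obese FXR-WT and lean FXR-WT, the same construct in mice of different obesity status, no member passed the limma test, where 1.2% of all genes did, and 3 members had an unadjusted p under 0.05 beside 13.5% of all genes. They were Gstp2 (-1.56, SE 0.49, adjusted p = 0.185), Ugt1a9 (-0.94, SE 0.35, adjusted p = 0.285) and Sult1c2 (0.86, SE 0.37, adjusted p = 0.351). Arrays did not overlap for 10 of 43 members and for 33% of all genes. This comparison shares its obese and lean arrays with the wider one and is no separate evidence. Without lean FXR-K217Q replicate 3, which enters only the shared spread, Gstp2 (adjusted p = 0.0329), Ugt1a9 (0.0487) and Ugt1a12 (0.0472) passed with the same changes. Without both arrays that stood apart, Gstp2 (-1.26, adjusted p = 0.0301) and Sult1c2 (1.14, adjusted p = 0.0347) passed. With that omission the clock summary was -0.49 and -0.27 on the lean and 1.30 and 1.55 on the obese FXR-WT arrays. Obesity and clock phase then cannot be told apart in this comparison. Neutrophil markers were higher in these obese FXR-WT livers (8.67 to 9.08 against 7.37 to 7.38), and their part was not tested. Medians were 0.02 for Gst, -0.03 for Sult and -0.16 for Ugt members, with 0 for all genes. Next in order of p were Ugt1a12 (-0.68, adjusted p = 0.428), Sult4a1, Gsto2, Ugt2a3 (-0.45, and nearest 0 at -0.26 without lean FXR-WT replicate 2) and Gstk1 (-0.29). Sult4a1 and Gsto2 were each detected on 1 obese and 0 lean FXR-WT arrays.

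In lean mice the FXR-K217Q mutant was compared with FXR-WT, which asks what an acetyl-mimic form of FXR does in lean liver. Of 43 members 0 passed the limma test, and 0% of all genes did. The biggest difference was that of the alpha class transferase Gsta2 (0.81) and the lowest was that of Sult1a1 (-0.41). At an unadjusted p under 0.05 there were 3 members, all higher, where 7.2% of all genes reached that level and 2.94% did so as higher. Differences were positive for 31 of 43 members (49.4% of all genes) and their median was 0.15, 0.23 for Gst, 0.09 for Sult and 0.17 for Ugt members, against 0 for all genes. The 3 mutant arrays were not alike, since members stood above their own means by a median of 0.20 and 0.27 on replicates 1 and 2 and at -0.10 on replicate 3.

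Ugt1a6b, a phenol glucuronosyltransferase, had the smallest p. It measured 9.79 and 10.04 in lean FXR-WT and 10.35, 10.58 and 10.25 in lean FXR-K217Q livers, a difference of 0.48 (SE 0.15, adjusted p = 0.494) with no overlap. Ugt1a1 measured 9.86 and 10.05 against 10.30, 10.76 and 10.25, a difference of 0.48 (SE 0.21, adjusted p = 0.65). Gstt2, a theta class transferase, measured 10.22 and 10.17 against 10.58, 10.63 and 10.55, a difference of 0.39 (SE 0.16, adjusted p = 0.621). In these 3 genes replicate 3 of the mutant sided with replicates 1 and 2. The arrays did not overlap for 5 of 43 members, all higher (Gsta2 and Ugt1a5 besides), where 22.3% of all genes did not overlap in either direction. Further down the order of p stood Gsta2 (0.81, SE 0.45, adjusted p = 0.756), Sult1c2 (0.64), Sult2b1 (0.30, detected on 2 of 3 and 1 of 2 arrays), Gsta4 (0.58) and Gsta1 (0.62). Leaving out 1 array moved Gsta2 between 0.57 and 1.14, Gsta1 between 0.42 and 0.92, Sult1c2 between 0.42 and 1.01 and Gsta4 between 0.30 and 0.96, the last pair lowest without lean FXR-K217Q replicate 1 and highest without replicate 3. Sult2b1 then lay between 0.16 and 0.43, lowest without lean FXR-K217Q replicate 3. Neutrophil markers were lower on the mutant side of this comparison (6.23 to 6.71 against 7.37 to 7.38), and the clock summary was 1.07, 1.29 and -0.92 against -0.49 and -0.27. Their part in these differences was not tested.

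In obese mice the FXR-K217R mutant was compared with FXR-WT, which asks what the loss of this acetylation site does in obesity. No member passed the limma test, where 0.0388% of all genes did, and no member had an unadjusted p under 0.05, which 4.41% of all genes had. The smallest p belonged to Gstm5 (-0.35, SE 0.17, adjusted p = 0.993), a mu class enzyme that measured 9.66, 9.32 and 9.32 in obese FXR-WT and 9.23, 8.78 and 9.25 in obese FXR-K217R livers. Ugt1a6b followed with 10.16, 9.96 and 10.19 against 10.49, 10.21 and 10.37 (difference 0.25, SE 0.14). Neither pair of groups overlapped, and with Ugt1a12 and Ugt1a9, both higher, 4 of 43 members did not, beside 9.85% of all genes. Gstp2 differed by 0.73 (SE 0.44), so that its mean in obese FXR-K217R lay between those of obese FXR-WT and lean FXR-WT. Sult1c2 differed by 0.56, Ugt3a1 by 0.49, Sult5a1 by 0.55, Sult1a1 by -0.45 and Gstm2 by -0.29. The Gstm2 value is set by obese FXR-K217R replicate 2 (13.03 against 13.73 to 14.07 on the other arrays) and was 0.01 without it. Obese FXR-WT replicate 1 carried much of several others. Without it Gstp2 differed by 0.43, Sult1c2 by 0.27, Ugt3a1 by 0.04, Sult5a1 by 0.10 and Sult1a1 by -0.16, each the value nearest 0 over the 11 omissions. Gstm5 ran from -0.43 to -0.19 over them, nearest 0 without obese FXR-K217R replicate 2. Of the 16 Ugt members 14 had a positive difference, with a median of 0.14, while 10 of 20 Gst and 3 of 7 Sult members were positive. Of all genes 48.8% were positive. Obese FXR-WT replicate 1 was low for several Ugt genes, such as Ugt3a1 (10.46 against 11.77 and 11.85 on the other obese FXR-WT arrays). Neutrophil markers were lower on the mutant side (6.31 to 6.70 against 8.67 to 9.08), and their part was not tested.

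No member passed the test of whether the FXR-K217R change in obese mice differs from the FXR-K217Q change in lean mice (0 of 43, and 0% of all genes, by limma's interaction contrast). Gstt2 alone had an unadjusted p under 0.05 (-0.50, SE 0.21, adjusted p = 1), beside 4.71% of all genes. Ugt1a6b, among the first 2 members by p in both mutant comparisons, differed by 0.48 in lean and 0.25 in obese mice, and the difference between these was -0.23 (SE 0.20). Over the 4 groups at once, limma's F test called 0 of 43 members and 1.31% of all genes, and 5 members had an unadjusted p under 0.05 beside 15.4% of all genes. They were Gstp2 (adjusted p = 0.112), Ugt1a9 (0.158), Sult1c2 (0.248), Ugt1a12 (0.263) and Ugt1a6b (0.27). Without lean FXR-K217Q replicate 3, Gstp2, Ugt1a9 and Ugt1a12 passed this test.

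**Figure D4:**
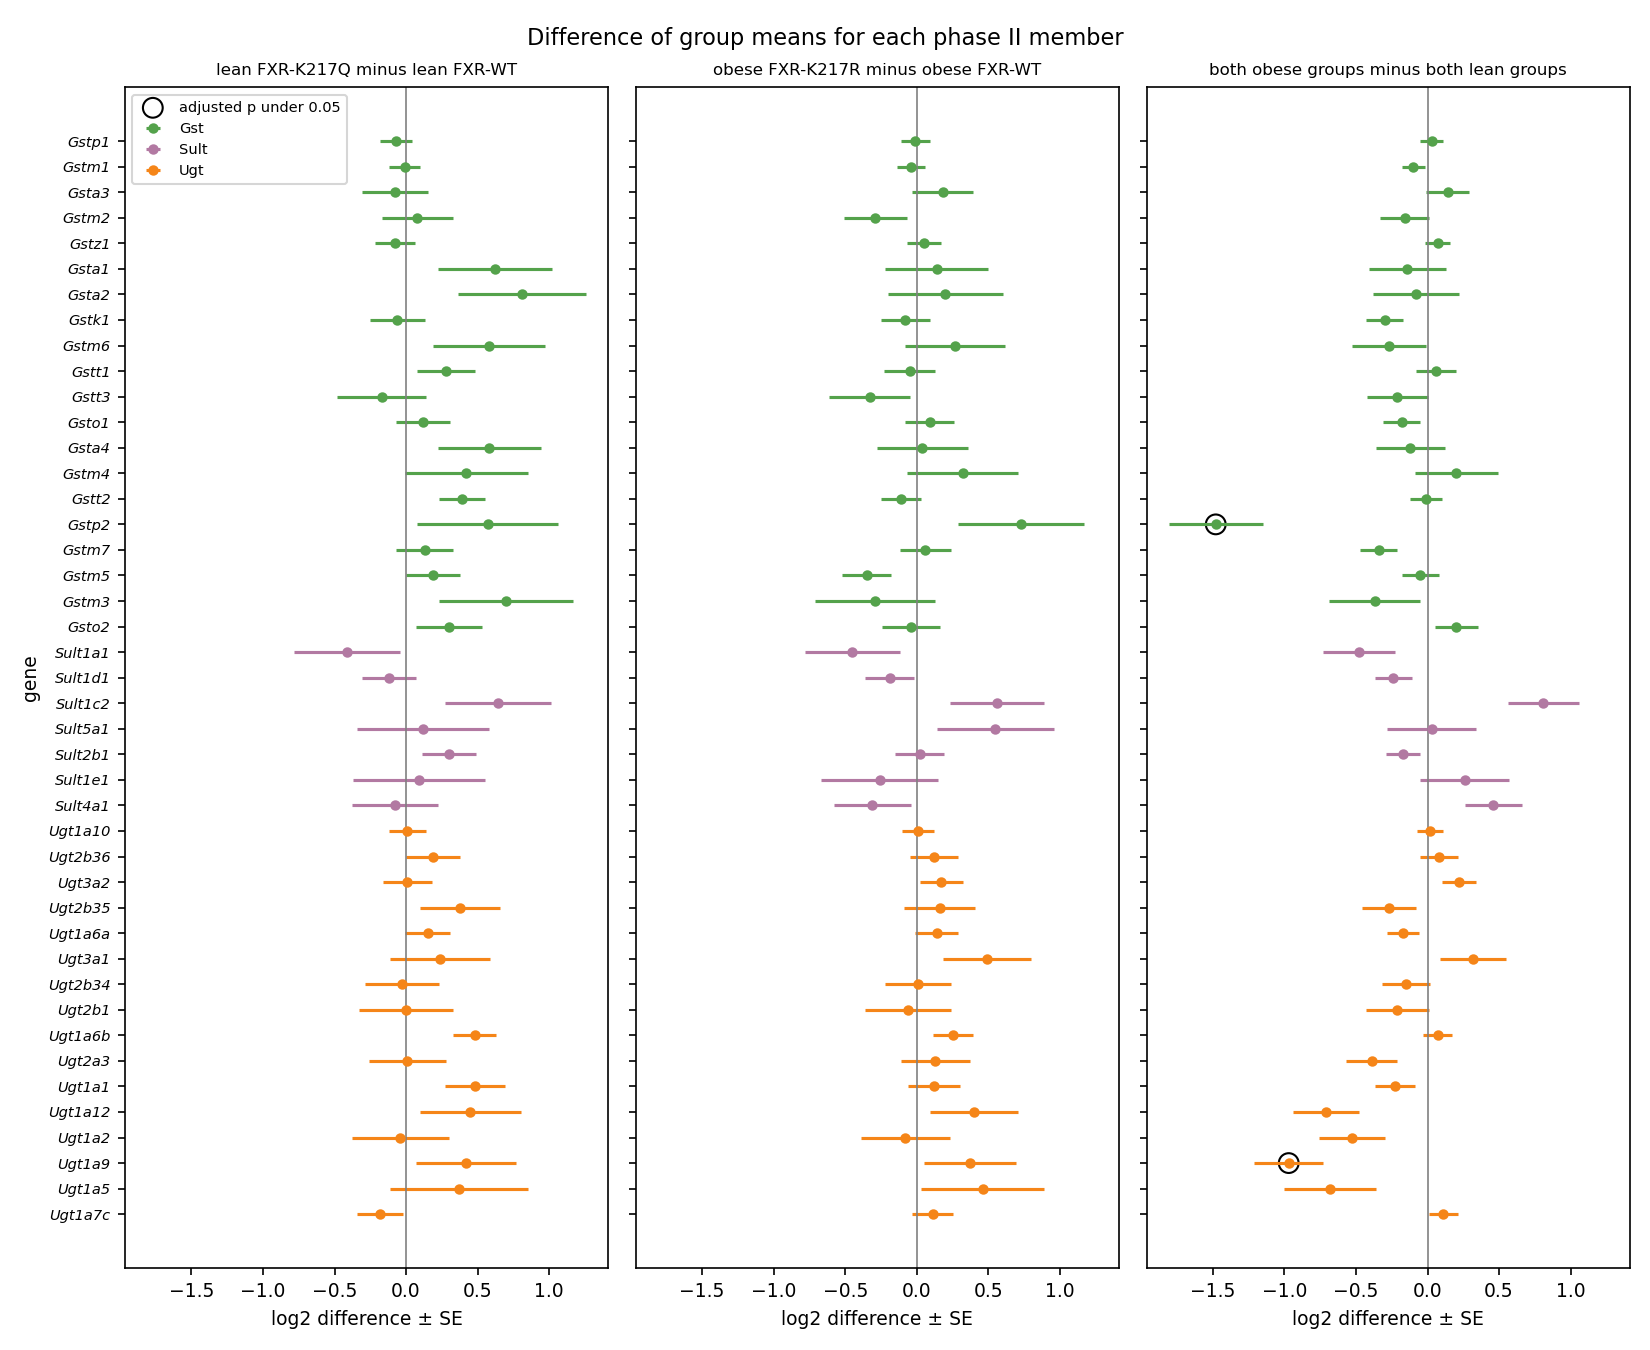
Difference of group means for each of the 43 members (rows) with its standard error, in log2 units, for FXR-K217Q against FXR-WT in lean mice, FXR-K217R against FXR-WT in obese mice, and both obese against both lean groups. Circles mark the 2 members past the threshold, Gstp2 and Ugt1a9, in the last comparison.

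Several alpha and mu class transferases varied widely between arrays of the same group. Gsta1 and Gsta2, alpha class enzymes that act on lipid peroxides and steroid isomers, Gsta4, the alpha class enzyme for hydroxynonenal, and the mu class Gstm3, Gstm4 and Gstm6 were high on lean FXR-K217Q replicates 1 and 2 and on obese FXR-K217R replicate 1. Gsta2 measured 13.15 and 12.99 in lean FXR-WT, 14.38, 14.06 and 13.22 in lean FXR-K217Q, 13.40, 12.77 and 13.73 in obese FXR-WT, and 14.32, 12.78 and 13.39 in obese FXR-K217R livers. Gsta1 measured 13.38 and 13.04, then 14.23, 14.03 and 13.24, then 13.54, 12.76 and 13.64, and 14.10, 12.78 and 13.48 in the same order of arrays. Gstm3 measured 8.85 and 8.17, then 9.88, 9.25 and 8.50, then 9.12, 8.16 and 8.64, and 9.10, 7.64 and 8.31. Each group with 3 arrays thus held both high and low arrays, and obese FXR-WT replicate 2 and obese FXR-K217R replicate 2 were among the low ones for all of Gsta1, Gsta2, Gsta4, Gstm3 and Gstm6.

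Genes outside the families, Nqo1 and Gclc among them, were also high on those 3 arrays, and on obese FXR-WT replicate 3. From the lists given below, Srxn1 (12.27, 11.90, 12.72 and 11.81), Mgst3 (11.70, 11.47, 11.77 and 11.63) and Abcc4 (9.90, 9.77, 10.22 and 9.38) were highest there too. These values are for lean FXR-K217Q replicates 1 and 2, obese FXR-K217R replicate 1 and obese FXR-WT replicate 3. Hmox1 was highest on obese FXR-K217R replicate 2 (10.78) and measured 9.72 on obese FXR-WT replicate 3. Nqo1, a quinone reductase and textbook NRF2 target, measured 7.75 and 7.67 in lean FXR-WT, 8.65, 8.49 and 7.59 in lean FXR-K217Q, 7.69, 7.60 and 8.33 in obese FXR-WT, and 8.80, 7.36 and 7.94 in obese FXR-K217R livers. Gclc, the catalytic subunit of the enzyme that limits glutathione synthesis, measured 8.05 and 8.09, then 8.68, 8.69 and 7.88, then 7.91, 8.35 and 8.78, and 9.33, 8.09 and 8.66 on the same arrays. Nfe2l2 itself ran from 7.03 to 7.95. Neither Nqo1 nor Gclc differed between groups beyond the error (0.53 and 0.34 in lean FXR-K217Q, adjusted p = 0.857 and 0.907). Gclm, the other subunit of the enzyme that Gclc belongs to, did not share the pattern, at 12.34 and 12.15 in lean FXR-WT against 12.10 and 12.31 on lean FXR-K217Q replicates 1 and 2. Neither did Gstp1, Gstz1 and Gstk1. Gstm1 lay 0.061 and 0.057 above its own mean on lean FXR-K217Q replicates 1 and 2 and 0.05 above it on obese FXR-K217R replicate 1. Gstp1 and Gstm1 were at the top of the measured range, and how far they could still rise was not tested. What set these arrays apart was not tested.

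**Figure D5:**
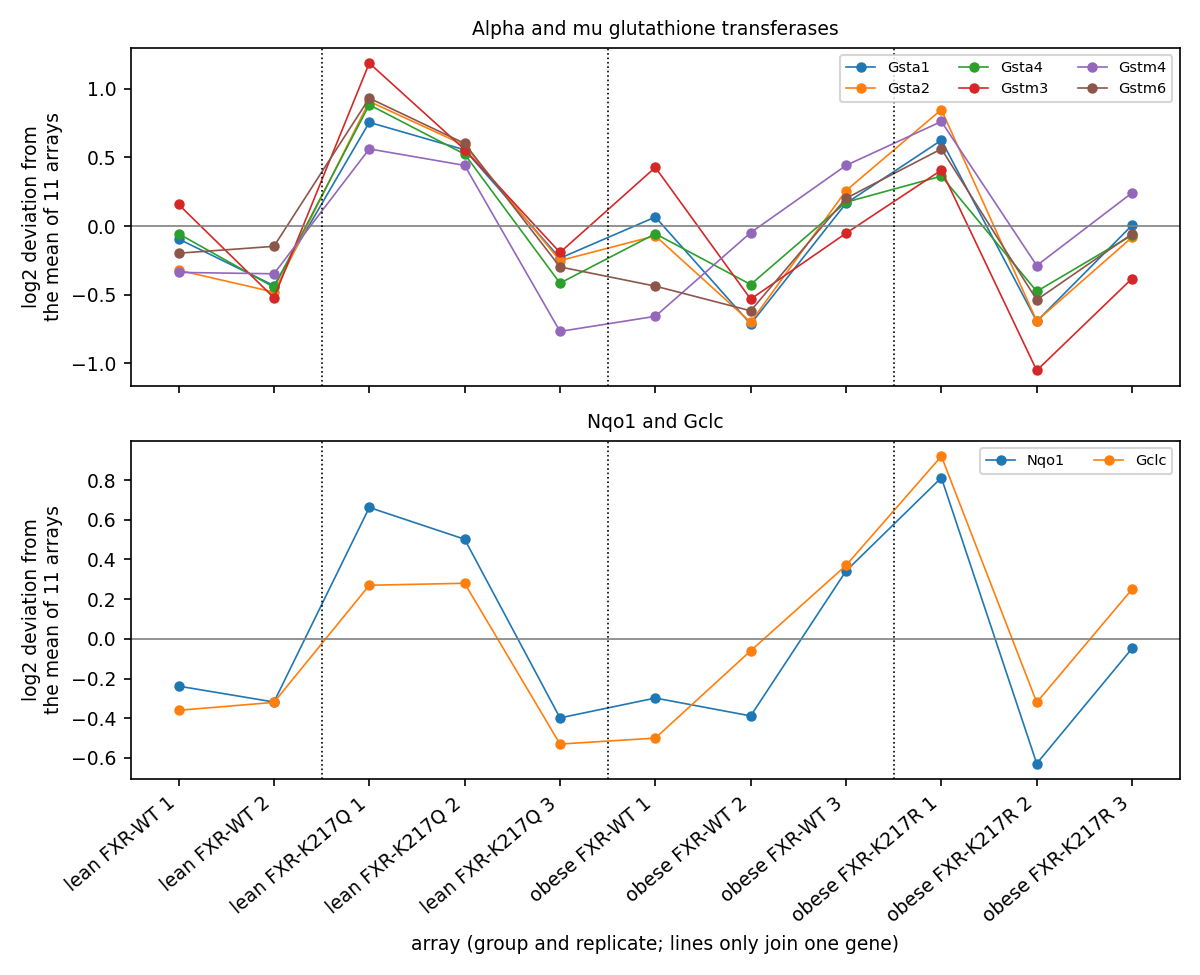
Deviation from the mean of 11 arrays, in log2 units, of Gsta1, Gsta2, Gsta4, Gstm3, Gstm4 and Gstm6 (upper panel) and of Nqo1 and Gclc (lower panel), by array in group order, with lines that only join points of 1 gene. Lean FXR-K217Q replicates 1 and 2 and obese FXR-K217R replicate 1 are above the mean for all 8 genes.

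The promoters of Gsta1 and Gsta2 are shown because the brightest probes of these genes lay above and below their own means on much the same arrays. Capitals mark the xenobiotic response element core GCGTG, found on either strand in 35.2% of the genes and in 8 of 37 members, so that its presence in both is a common feature. RefSeq build GRCm38.p6 places the Gsta1 window at chr9:78230419-78230718 on the plus strand and the Gsta2 window at chr9:78347096-78347395 on the minus strand.
Gsta1: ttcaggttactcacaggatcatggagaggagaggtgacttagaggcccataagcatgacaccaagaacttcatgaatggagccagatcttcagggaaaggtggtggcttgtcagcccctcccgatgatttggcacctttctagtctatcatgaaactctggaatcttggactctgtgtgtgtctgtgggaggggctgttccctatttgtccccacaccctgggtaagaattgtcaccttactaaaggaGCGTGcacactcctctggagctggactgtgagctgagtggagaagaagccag
Gsta2: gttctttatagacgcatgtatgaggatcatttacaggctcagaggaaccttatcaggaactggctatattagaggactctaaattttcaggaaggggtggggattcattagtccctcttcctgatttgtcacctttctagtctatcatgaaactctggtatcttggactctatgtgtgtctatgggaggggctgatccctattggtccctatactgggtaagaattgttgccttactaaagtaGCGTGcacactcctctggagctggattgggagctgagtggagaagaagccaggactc
The letters begin 2 bases before the start in Gsta1 and 7 bases before it in Gsta2, in a stretch that both genes share. The windows were 75.3% identical (238 of 316 aligned columns). The identity is that of the windows, and probe and transcript sequences were not compared. Whether a probe of one gene also binds transcripts of the other was therefore not tested, and their values cannot be assigned with certainty.

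Genes that feed, carry and regulate conjugation were counted in 13 lists, which held 119 tested genes besides the members. Of these 15 were called between both obese and both lean groups, 5 higher and 10 lower, 4 between obese and lean FXR-WT, and 0 in either mutant comparison or their difference, where 7, 6 and 6 had an unadjusted p under 0.05 by limma. Of all genes 4.14% and 1.2% were called in the first and second of these comparisons, and 7.2%, 4.41% and 4.71% had an unadjusted p under 0.05 in the other three. The lists were chosen with earlier results of these data known, so a count above such a share is no separate evidence. Median changes of the lists between both obese and both lean groups stand beside a median of 0 for all genes. In that comparison 21.1% of all genes had an unadjusted p under 0.05 by limma.

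Donor supply was read for each family. Of 7 tested sulfate donor genes 1 fell (median -0.01). It was Papss1, which makes PAPS, at -0.47 (SE 0.10, adjusted p = 0.0283). Papss1 measured 9.84 to 10.21 on lean and 9.44 to 9.75 on obese arrays, which did not overlap, and the call was lost on leaving out 6 of the 11 arrays singly (adjusted p up to 0.151). Of 16 glutathione genes 2 fell and 1 rose (median 0.04). Cbs and Cth, which make cysteine from homocysteine, fell by 0.88 (adjusted p = 0.0071) and by 1.37 (adjusted p = 0.0268), and Chac1, which degrades glutathione, rose by 1.03 (adjusted p = 0.0279). Leaving out 1 array lost the Cbs call once (without lean FXR-WT replicate 2, adjusted p = 0.0545) and the Cth and Chac1 calls 4 times each (up to 0.146 and 0.123). None of 6 UDP-glucuronate genes passed, 2 had an unadjusted p under 0.05, and the median was -0.09. The smallest p among them was that of Ugp2, which makes UDP-glucose (0.69, SE 0.19, adjusted p = 0.0764).

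After conjugation, Arsa, a lysosomal sulfatase, rose by 0.48 (adjusted p = 0.0129) as 1 of 6 deconjugating enzymes (median 0.22), and Abcb4, a phospholipid transporter of the bile canaliculus and known FXR target, rose by 0.60 (adjusted p = 0.0132) as 1 of 9 genes of conjugate efflux (median 0.17), a list of pumps that also holds the scaffold proteins Rdx and Pdzk1. Both calls were lost without lean FXR-WT replicate 2 only (adjusted p = 0.0917 and 0.0924). Abcc3, which exports glucuronides to the blood, differed by 0.40 (adjusted p = 0.115). Among 12 regulators (median 0.12) 1 fell, Rxra, the common partner of FXR, PXR and CAR, by 0.43 (adjusted p = 0.0495), a call lost on leaving out any of the 11 arrays (0.0517 to 0.208). Nr1h4 differed by 0.02, Nr1i2 by 0.41, Nr1i3 by 0.34 and Nfe2l2 by 0.23, none past the threshold. None of 10 receptor indicator transcripts passed (median -0.32, 2 with an unadjusted p under 0.05 by limma). Cyp2b10, the usual indicator of CAR activity, ranged from 7.25 to 10.91, with a difference of -0.88 (adjusted p = 0.389).

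Sex-biased liver transcripts also held calls. The male-biased list, which contains the members Gstp1 and Ugt2b1, had 4 of 11 tested genes lower and 0 higher (median -0.27), where 1.62% of all genes were called lower and 2.53% higher. Both sex-biased lists were chosen with earlier results of these data known, so their counts describe the lists and test nothing about sex bias. Serpina1e, a serpin, fell by 1.69 (adjusted p = 0.000704), followed by the fatty acid elongase Elovl3 (fell by 1.46, adjusted p = 0.018) and Susd4 (fell by 1.31, adjusted p = 0.000252). The remaining gene called lower was Cyp7b1, which fell by 1.2 (adjusted p = 0.0404, limma). Of 6 female-biased genes 2 were called higher and another 2 had negative differences that did not pass (median 0.73). The genes called were the cytochromes P450 Cyp2b9 (3.41, adjusted p = 0.0321) and Cyp2b13 (3.05, adjusted p = 0.0411). Both were lowest on the lean FXR-WT arrays and the pair that stood apart, which are the arrays with a clock summary below 0. On obese FXR-WT replicate 1 Cyp2b9 measured 8.12, against 11.32 and 11.83 on replicates 2 and 3. The part of the clock in these differences was not tested. Cyp2b13 was detected on 0 of 2 lean FXR-WT and 2 of 3 lean FXR-K217Q arrays, so its difference is set partly against background and its size is not exact. Omitting single arrays lost the Elovl3 call 3 times (up to 0.101) and the Cyp7b1 call 8 times (up to 0.168). It lost the Cyp2b9 call 7 times (up to 0.163) and the Cyp2b13 call 9 times (up to 0.158), and those of Serpina1e and Susd4 never. The male-biased members themselves differed by 0.03 (Gstp1, brightest probe) and -0.21 (Ugt2b1) and did not pass. That Gstp1 probe lay at the top of the measured range (15.01 to 15.23), where its room to vary was not tested. The other Gstp1 probes disagreed, at 0.05 and, for the dimmest, -0.68 (adjusted p = 0.0829 over all probes, limma). Whether Gstp1 itself differed is therefore not settled by these probes.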

How the data were processed

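Liver RNA was measured on 11 Illumina BeadChip arrays. Per the file headers, the deposited non-normalized table holds, for each probe and array, a mean bead intensity, the number of beads as a count, and a detection p-value. The authors also deposited normalized log2 values in 2 copies that are identical, made with limma 3.12.3 per the submitters' processing notes. Labelled cRNA was made with a kit that the labels' protocols name. The bead summary software and the genome build are not given in the sources used here, and 0 columns were left unmatched.

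Intensities were background-corrected and quantile-normalized (neqc, offset 16, limma 3.58.1 under R 4.3.3) from the detection p-values, and differ from the authors' deposited log2 values by 0.0271 at most. Of 45281 probes, 21485 had a detection p under 0.05 on at least 2 arrays, and the brightest probe per symbol left 15469 genes. Probes had a mean of 41.9 to 44.0 beads, and 18263 to 19500 probes were detected per array. Of the members, 14 had several probes past the filter (65 member probes in all), and in 5 of them the probes differed in sign between obese and lean groups. The number of arrays limits precision.

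One limma model (lmFit, eBayes) with a mean for each of 4 groups gave 5 contrasts and an F test, with Benjamini-Hochberg adjustment within each over all genes at 5% and two-sided tests. Alternatives changed background correction, normalization, filter, probe choice, test, covariates and arrays. Promoters were matched by symbol (37 of 43 members) and aligned with Biopython 1.88. The fit was tested on simulated data.

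Members named by level are the 5 brightest of each family and those not detected on every array of a group. Members named by change are those past 5% and then those with the smallest p, up to 8 per contrast. From each list come up to 3 called genes or else the one with the smallest p, and Cyp7b1 was added as a further called gene. Nr1h4, Nr1i2, Nr1i3, Nfe2l2, Gclc, Nqo1, Cyp2b10 and Abcc3 are always given. Other members (Ugt1a5, Gstm3, Gstm4, Gstm6 and the rest) were named after their values were seen, for the array pattern or for counts of groups that do not overlap. So were the list genes Srxn1, Mgst3, Abcc4 and Hmox1, for the array pattern. Members and lists were chosen with earlier results of these data known.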

Additional observations from a re-analysis of the deposited data

How the results depend on the processing

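Of the counts of called members under other settings, 120 of 141 stayed within 1.5 times the count reported. So did 114 of 118 member medians within 1 SD of the array medians and 901 of 938 named changes on their side of the threshold with the same sign. Most counts reported were 0 and most named changes were not called, so these totals say little about the 2 calls. The count between both obese and both lean groups (2) was the least stable. It was 1 with quantile normalization alone or without the quantile step, 0 without a filter on dim probes, 1 with trend and robust eBayes, 4 with array weights, and 5 without both arrays that stood apart, a choice made after seeing the data. Leaving out single arrays gave 0 to 3. Over 23 settings Gstp2 passed in 12 and Ugt1a9 in 9, always lower. Obese FXR-WT against lean FXR-WT gave 0 to 3 over single arrays left out and 2 without both arrays that stood apart, and the F test gave 3 with array weights, 0 to 3 over single arrays and 4 without both. The median of the mutant-change difference (-0.07) was -0.22 with array weights, -0.29 without both arrays and -0.21 to 0.03 over single arrays, and that of obese FXR-K217R against FXR-WT (0.06) was 0.02 to 0.17. The Gstm2 difference in obese FXR-K217R reversed to 0.01 without obese FXR-K217R replicate 2, with -0.48 to 0.01 over single arrays. The cause of these shifts was not tested. With the replicate number as a block, the count between obese and lean groups was 0 and no other count moved, Gstp2 then differing by -1.45 and Ugt1a9 by -0.90. Correlations of same-numbered arrays' deviations were -0.107 to 0.234. With groups of 2 or 3 arrays they cannot settle whether arrays of the same number are paired. No change of processing moved the median of all genes between obese and lean groups by more than 0.047. Slide as a block was not run because the headers give none, and arrays of the compared groups alone give no value for the comparisons that use all groups. Low signal limits Gsto2, Sult1e1, Sult2b1, Sult4a1 and Ugt1a7c.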

Other observations

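Enzymes of other conjugation routes and genes of liver zonation were also read, in lists chosen with earlier results of these data known. Between both obese and both lean groups 4.14% of all genes were called, 1.62% as lower and 2.53% as higher. An unadjusted p under 0.05 by limma was seen in 21.1% of all genes. Of 15 tested other conjugating enzymes none passed between obese and lean groups by limma (3 with an unadjusted p under 0.05, median 0.04), and the smallest p was that of Nnmt, the nicotinamide methyltransferase (-1.42, SE 0.36, adjusted p = 0.0548). All 3 microsomal glutathione transferases were tested and none passed (0 with an unadjusted p under 0.05, median 0.07). Mgst1 differed by 0.06 (SE 0.07, adjusted p = 0.67). Of 11 pericentral hepatocyte transcripts none passed (3 with an unadjusted p under 0.05, median 0.04), the smallest p being that of Gulo, which makes the last step of vitamin C synthesis (0.29, SE 0.10, adjusted p = 0.135). Of 11 periportal transcripts 2 fell and 0 rose (median -0.38), both urea cycle enzymes. Cps1 fell by 0.98 (adjusted p = 0.0101) and Ass1 fell by 0.62 (adjusted p = 0.0483). The Cps1 call was lost without lean FXR-WT replicate 2 (adjusted p = 0.0722) and the Ass1 call on leaving out 9 of 11 arrays singly (up to 0.195).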
